A study of Drosophila melanogaster with 4 samples.

Results

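Chromosome arm 3L, the left arm of chromosome 3 of Drosophila melanogaster, carried 207 of the 1524 peaks at which chromatin of embryos was enriched for GFP-tagged Hr78. The members are all peaks that the authors' list places on the sequence named 3L, so they were chosen by position alone and neither width nor score entered the choice. They make up 18.9% of the 1095 peaks on the 6 arms (3L, 3R, 2L, 2R, X and the small chromosome 4; exact 95% Clopper-Pearson interval 16.6 to 21.4%). The peaks on 3LHet, a separate scaffold of heterochromatin assigned to the same arm, are not among them.

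The data come from chromatin immunoprecipitation followed by sequencing (ChIP-seq), with 2 ChIP libraries and 2 input libraries, the latter made from chromatin DNA without precipitation. All 4 libraries are labelled with the strain Hr78-GFP, the genotype PBac{y[+]-attP-3B}VK00037 and a transgene of the Hr78 genomic coding region, and all come from embryos aged 8 to 16 h. The groups differ only in the precipitation, done with GFP ab290, a rabbit polyclonal antibody against the tag, so strain, transgene and age are common to ChIP and input. The label of the transgene does not say whether the line still has its untagged Hr78, the embryo protocol speaks of y; bw cn sp flies, and no label lists a precipitation from untagged embryos. Whole embryos were used, so a peak can stem from any of their tissues. The list is common to all libraries, so no peak has a value per library, a replicate error or a known depth. Tests below are across peaks of this list, their p-values and intervals cover counting error only, and neighbouring peaks are not independent of each other.

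Hr78 is an orphan nuclear receptor, a transcription factor that holds DNA through zinc fingers and has no established natural ligand. In Drosophila it is known to be needed for the response to the steroid hormone ecdysone at the onset of metamorphosis, and its protein can hold a part of the DNA elements that the ecdysone receptor uses. A peak in ChIP-seq marks a stretch where fragments carried down with the tagged protein pile up above background, and it does not show whether the protein touches the DNA itself or acts on a gene nearby. The Hr78 gene also lies on 3L in the gene table at hand, which belongs to release 6 of the genome. The peaks are placed on release 5 and positions were not carried over between releases, so peaks carry no gene names here, the place of Hr78 among the peaks was not analysed here and no sequence is shown. All positions below are on release 5 of 3L, counted from 1.

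Most 3L peaks had low scores, and a few scored far higher. Their scores, the authors' value for each peak on a scale that the list does not name, ran from 7.03 to 239.2 with a median of 16.3 and an interquartile range of 11.1 to 27.2. Of the 3L peaks, 17 scored 50 or more and 5 scored 100 or more, while 37 (17.9%) scored under 10. The share under 10 was 15.5% on X, 10.5% on 2L, 11.9% on 2R and 15.7% on 3R. Median scores on these arms were also low, at 17.9, 21.9, 16.7 and 19.5 in the same order. Widths ran from 201 to 1374 bp with a median of 387 bp and an interquartile range of 276.5 to 504.5 bp, and the peaks covered 87.9 kb, or 0.359% of the stretch between the outermost peaks, called the span below. The 10 highest peaks held 23.3% of the summed score of the arm and the 20 highest held 34.0%.

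Both leading peaks of 3L scored more than any other peak on an arm except 1, and the arm then fell away steeply. The peak at 6118012 to 6118699 scored 239.2 over 688 bp, and the peak at 4402901 to 4403880 scored 235.4 over 980 bp. They took ranks 2 and 3 among all arm peaks. The next peak of 3L, at 24020829 to 24021758 near the centromere end of the span, scored 111.0 and came only at rank 33. The peak at 7242266 to 7243144 scored 110.4 over 879 bp, and the peak at 18081077 to 18081540 scored 102.8 over 464 bp, the narrowest of the 10 highest.

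The other 5 of the 10 highest peaks scored between 73.7 and 94.1. The peak at 16045086 to 16046459 scored 94.1 and was the widest of the arm, at 1374 bp. The peak at 19055867 to 19056391 scored 87.0 over 525 bp, and the peak at 19439479 to 19440347 scored 78.1 over 869 bp. The peak at 14667066 to 14667546 scored 77.4 over 481 bp, and the peak at 1312778 to 1313843 scored 73.7 over 1066 bp. The 10 were spread over the arm from its telomere end to its centromere end, and all 10 were single, with no other peak within 5 kb. Their nearest neighbours lay at least 10.5 kb away, with a median of 55.4 kb. Among the 20 highest peaks, 14 were single. Of all peaks of the arm, 142 (68.6%) were single, so the 20 highest were single about as often as the arm as a whole.

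At the other end of the scale, the 3 lowest scores belonged to a peak at 685313 to 685543 with 7.03, a peak at 8690842 to 8691274 with 7.30 and a peak at 15808986 to 15809284 with 7.32. The lowest of them was 231 bp wide and lay in a pair with a peak of 18.3, whereas the second was 433 bp wide, above the median width of the arm.

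Strong peaks were scarcer on 3L than on the other large arms pooled. At or above a score of 38.6, the upper quartile of the 841 peaks on X, 2L, 2R and 3R, stood 30 of the 207 peaks of 3L (14.5%) against 25.3% of the others. The difference, 3L minus the others, was -10.8 percentage points (Newcombe 95% interval -15.98 to -4.70; two-sided Fisher's exact test, p = 8.8e-04, and 0.0044 adjusted over the 5 share comparisons of 3L). At the median score of the other arms, 18.7, which was the level of the main comparison, 86 peaks of 3L (41.5%) stood at or above it against 50.8%. That difference of -9.23 points (-16.5 to -1.63; Fisher's exact test, p = 0.020) did not pass once adjusted over the 5 comparisons (adjusted p = 0.099).

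Each large arm was then set against 3L at the score of 38.6. The share was 26.2% on X (44 of 168), 31.1% on 2L (65 of 209) and 23.1% on 3R (53 of 229), and each was above that of 3L (Fisher's exact tests adjusted over the 4 arms, p = 0.012, 2.6e-04 and 0.037). On 2R it was 21.7% (51 of 235), and the difference from 3L of -7.21 points (-14.3 to 0.0424) did not pass (Fisher's exact test, adjusted p = 0.064). Peaks with a score of 50 or more made up 8.21% on 3L against 18.5% on the 4 other large arms pooled, with 17.9% on X, 21.1% on 2L, 17.0% on 2R and 18.3% on 3R. The upper quartile of the scores was 27.2 on 3L and between 34.1 and 45.1 on the other large arms, while the lower quartile was 11.1 on 3L and between 11.9 and 13.0 there.

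**Figure D1:**
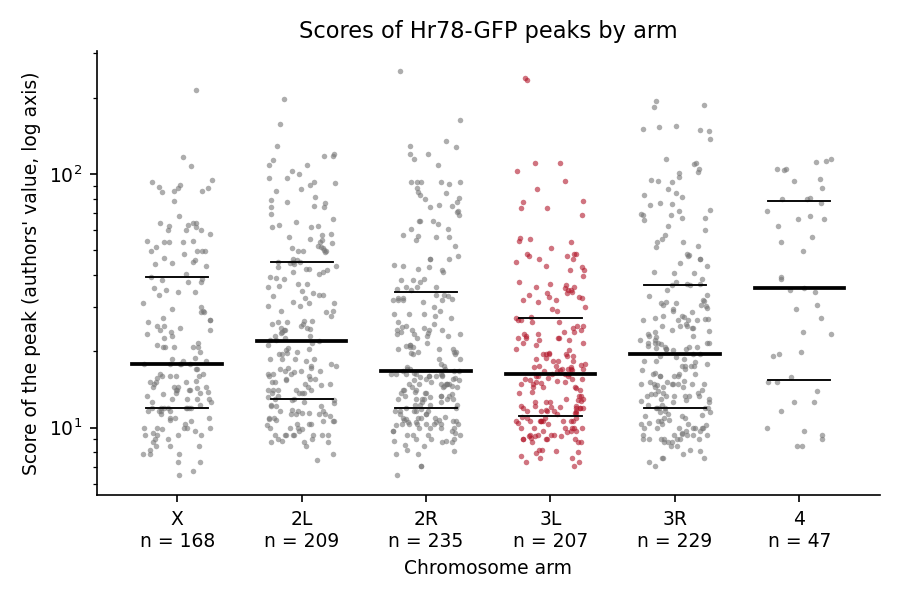
Score of every peak on the 6 arms (log axis), 1 point per peak, with 3L in red; the thick bar is the median and the thin bars are the quartiles. The upper quartile of 3L, 27.2, lies below those of the other arms, while its 2 highest peaks, at 239.2 and 235.4, are exceeded by 1 peak of 2R.

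The density of peaks on 3L was below that of 2R and chromosome 4, and no difference passed against the other 3 arms. With 207 peaks over a span of 24.5 Mb, 3L held 8.46 per Mb (exact Poisson 95% interval 7.35 to 9.70). Its density was 0.76 times that of 2R (0.63 to 0.92; two-sided exact conditional test adjusted over the 5 other arms, p = 0.010) and 0.23 times that of chromosome 4 (0.17 to 0.32; exact test, adjusted p = 4.5e-14). With each group of neighbouring peaks counted once, the ratio to 2R was 0.79 and no longer passed (exact test, adjusted p = 0.056). Against X, 2L and 3R the ratios were 1.08 (0.88 to 1.33), 0.93 (0.76 to 1.13) and 1.03 (0.85 to 1.25), and none passed (exact tests, adjusted p = 0.63, 0.63 and 0.77).

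Wider peaks of 3L had higher scores. Spearman's rho across the 207 peaks was 0.68 and Pearson's r was 0.54, as a description, since both values of a peak come from the same calling and the same libraries. Cut into 4 classes by score, the lowest class (52 peaks, scores up to 11.0) had a median width of 258 bp, the next 297 bp, the third 442 bp and the highest (52 peaks, from 27.3) 504 bp. Among peaks that scored at least the arm median, rho was 0.38, a value that a set limited in score lowers by itself. No peak of the highest class was narrower than 306 bp. The share of peaks at or above 401 bp, the median width of the other large arms, was 45.4% on 3L and 50.1% on those arms, a difference of -4.65 points (-12.1 to 2.94) that did not pass (Fisher's exact test, p = 0.24; adjusted p = 0.31). At the upper quartile of width of the other arms it was -7.70 points (-13.2 to -1.30; 17.4% against 25.1%; Fisher's exact test, p = 0.022; adjusted p = 0.055), and at the median without a dense stretch of 27 peaks on 2L it was -0.725 points.

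**Figure D2:**
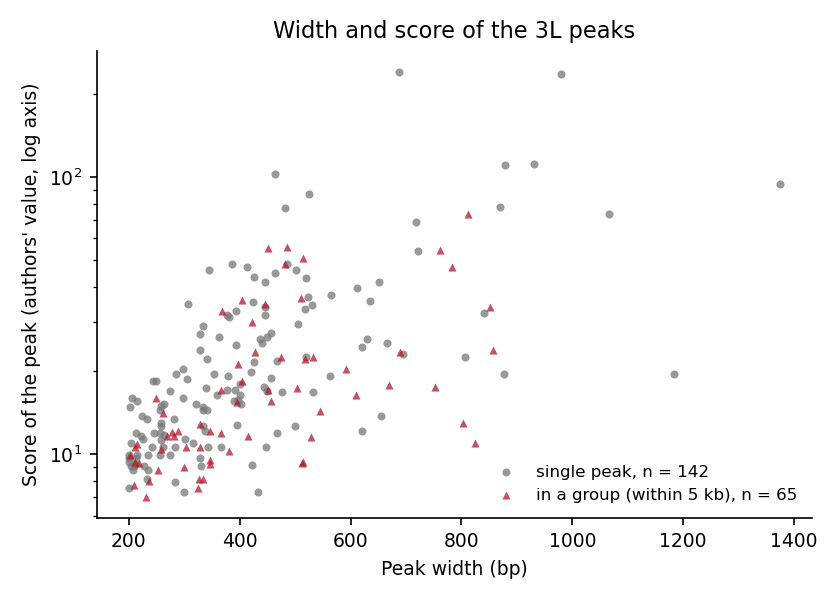
Width (bp) against score (log axis) of the 207 peaks of 3L, with single peaks as grey circles and peaks in groups as red triangles. Scores rise with width (rho 0.68), and the highest peaks are grey, with the highest grouped peak at 73.4.

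A few peaks went against this relation. The second widest peak of the arm, at 9685966 to 9687149, was 1184 bp wide and scored only 19.5, whereas the third widest, the peak of 1066 bp at 1312778, scored 73.7. In all, 8 peaks were wider than 504.5 bp, the upper quartile of width, and scored below the median of 16.3. Among them was a pair at 21018038 to 21018862 and 21019401 to 21020202, 825 and 802 bp wide, with scores of 10.9 and 13.0 and 538 bp between them. The peaks of this paragraph other than the 3 widest and the 10 highest were picked after their values were seen.

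The number of peaks varied along the arm. The span was cut into 10 equal stretches of 2.45 Mb from the telomere side (low coordinates) to the centromere side. The first held 32 peaks (exact Poisson 95% interval 21.9 to 45.2) and the sixth, from 12302047 to 14747750, held 8 (3.45 to 15.8). The third held 13, and the other 7 held between 17 and 26. With each group of neighbouring peaks counted once, the first held 23 and the sixth 8. The third then held 12, and the other 7 held between 14 and 21. In windows of 1 Mb, the first Mb held 20 peaks against a median of 9 over the 24 full windows, and the sixth Mb held 2.

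The dense first Mb had a lower median score than 3L as a whole. None of the 20 peaks of the first Mb scored over 29.4, and their median was 12.3, against 16.3 over the arm. Sparse parts of the arm held high or low peaks: the 3 peaks of the window from 20000001 to 21000000 scored at most 17.4, with a median of 13.0. The 8 peaks of the sixth of the 10 stretches had a median of 40.1 and reached 77.4 at 14667066. The last stretch, next to the centromere, had a median of 28.9 over 17 peaks, and the third, which holds the highest peak of the arm, had 25.2 over 13. The fourth stretch, with 26 peaks, had the lowest median, 12.9, and no peak of 50 or more. These stretches were described after their values were seen and carry no test. Without the first Mb, 16.0% of the 3L peaks reached the upper quartile score of the other large arms, still fewer than there (difference -9.28 points, Fisher's exact test, adjusted p = 0.038).

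On the telomere side of the midpoint of the span lay 118 peaks, or 57.0% (exact 95% Clopper-Pearson interval 49.96 to 63.9%), a share that did not pass against 50% (two-sided exact binomial test, p = 0.051; adjusted p = 0.13). With each group of neighbours counted once it was 54.7%. The same share was 52.6% on 2L, 48.8% on X, 41.3% on 2R and 39.7% on 3R, values given without a test.

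**Figure D3:**
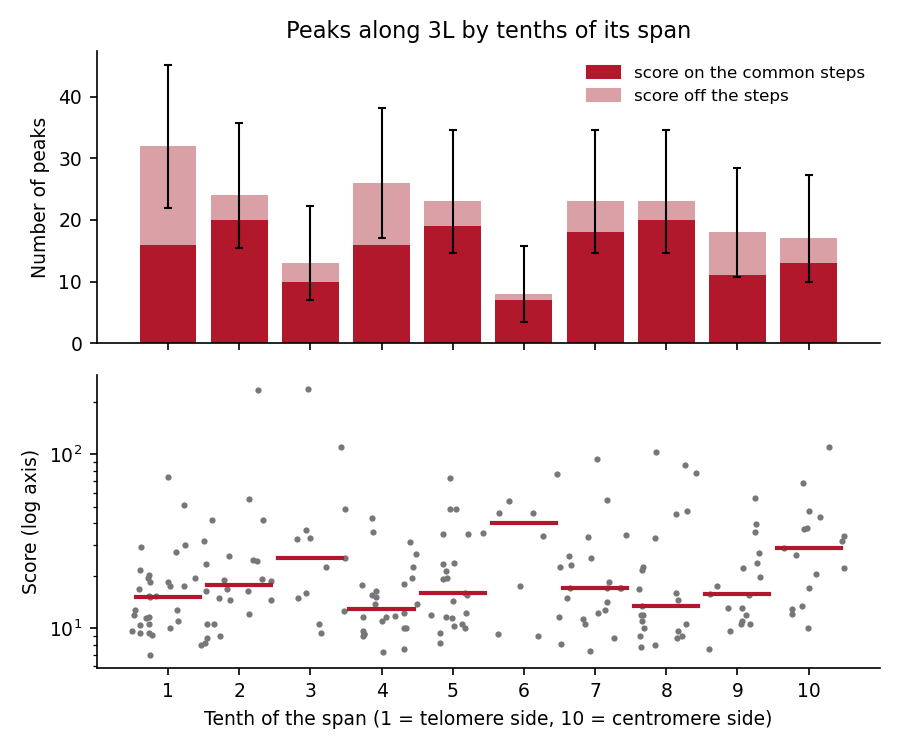
Upper panel, number of peaks in each of the 10 equal parts of the span of 3L from the telomere side (1) to the centromere side (10), with exact Poisson 95% intervals; dark parts are peaks whose score lies on the common steps explained in the text. Lower panel, score of every peak (log axis) by its place in the span, with the median of each part in red. The first part holds 32 peaks with a median score of 15.2, and the sixth holds 8 with a median of 40.1.

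Long stretches of 3L had no peak. The longest ran for 905.2 kb between a peak at 4840588 to 4840892 with a score of 18.7 and a peak at 5746143 to 5746982 with a score of 32.4. It thus lies between the 2 highest peaks of the arm, at 4402901 and 6118012. The second, of 821.1 kb, lay between the peak at 21627504 to 21627924, with 19.7, and the peak at 22449047 to 22449380, with 28.9. The third, of 670.7 kb, began after the high peak at 18081077 and ended at 18752249 to 18752711, where the score was 45.1. There were 8 stretches over 500 kb, together 21.1% of the span, and 41 over 200 kb, together 65.2%. Such stretches were not counted on other arms. From midpoint to midpoint, the longest distance was 905.8 kb on 3L. It was 914.0 kb on X, 1313 kb on 2L, 966.8 kb on 3R and 479.1 kb on 2R. The median distance from a peak to the next, midpoint to midpoint, was 52.2 kb on 3L against 44.9 to 51.4 kb on the other large arms, with no test. The lower quartile of this distance was 15.2 kb on 3L, 14.7 kb on 3R and 7.74 to 8.40 kb on X, 2L and 2R.

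The share of peaks with a close neighbour on 3L lay between those of the other large arms. Another peak lay within 5 kb, midpoint to midpoint, for 62 of the 207 peaks (29.95%), against 29.7% of the peaks of the other large arms (difference 0.225 points, -6.41 to 7.43; two-sided Fisher's exact test, p = 1.0). The pooled share averages arms on both sides of 3L, with 35.7% on X, 35.3% on 2R, 27.8% on 2L and 21.4% on 3R. By groups, in which at most 5 kb separate the end of a peak from the start of the next, 3L had 142 single peaks, 22 pairs, 4 groups of 3, a group of 4 and a group of 5. The 65 grouped peaks had a median score of 14.1 and a median width of 404 bp, against 17.1 and 378.5 bp for the 142 single peaks. A score of at least 16.3, the median of 3L, was reached by 43.1% of grouped and 54.9% of single peaks, a difference of -11.8 points (-25.7 to 2.76) that did not pass (Fisher's exact test, p = 0.13; adjusted p = 0.22). Grouped peaks reached at most 73.4 and single peaks 239.2.

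**Figure D4:**
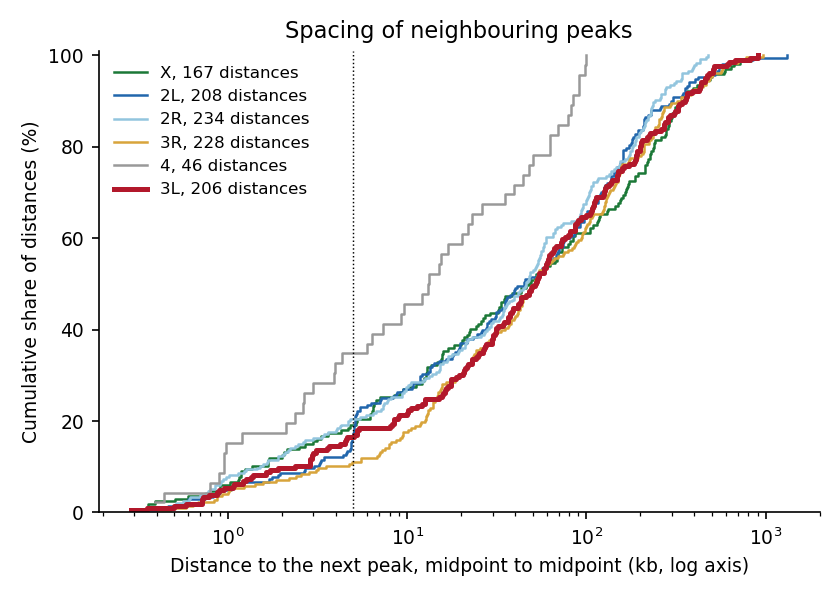
Cumulative share (%) of distances from each peak to the next on its arm, midpoint to midpoint (kb, log axis), with 3L as the thick red line and 5 kb dotted. The median is 52.2 kb on 3L and 13.2 kb on chromosome 4; the lower quartile is 15.2 kb on 3L, close to the 14.7 kb of 3R and above the 7.74 to 8.40 kb of X, 2L and 2R.

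Most pairs joined a higher, wider peak with a lower, narrower one. In 19 of the 22 pairs the higher peak was also the wider. Width and score rose together over all 207 peaks of 3L (rho 0.68). No such count was made for peaks that are not neighbours or for other arms. The higher score was 1.06 to 4.60 times the lower, with a median of 1.54, and it was over 2 times the lower in 5 pairs. The bases between them numbered 51 to 4743, with a median of 2170, and in 9 pairs they spanned under 1 kb. In the strongest pair, a peak at 11002123 to 11002603 with a score of 48.6 stood 737 bp before a peak at 11003341 to 11004151 with 73.4, the highest grouped peak of the arm. The most unequal pair had a score of 55.4 at 4092717 to 4093167 and of 12.0 at 4095752 to 4096029. Near the last base with a peak, 24529102 to 24529953 scored 33.9 and 24530052 to 24530568, only 98 bp on, scored 22.1. These 3 pairs were picked after their values were seen.

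The 6 groups of 3 or more peaks differed in shape. The group of 5 at 626864 to 635357, in the dense first Mb, had scores of 10.6, 9.35 and 20.3, then a break of 4712 bp, then 11.6 and 15.4. The group at 1856780 to 1865510 led with 50.9, followed by 17.4 and 29.9 at breaks of 4082 and 3209 bp. The group at 2584188 to 2587508 had 8.15, 23.4 and 16.3, the latter 2 being 690 and 610 bp wide with 303 bp between them.

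The group of 4 at 8013643 to 8016712 stood apart by its evenness. Its scores were 9.56, 9.02, 9.24 and 9.27, the highest being only 1.06 times the lowest, over widths of 347, 300, 346 and 513 bp and breaks of 176 to 824 bp. In the other 5 groups this ratio ran from 2.17 to 3.87. The group at 11106352 to 11113536 had 14.3 and, after 4805 bp, 10.3 and 23.8, the last being 857 bp wide. The group at 16370909 to 16374954 ended in its highest peak, 54.4 over 761 bp, after 17.1 and 14.1.

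**Figure D5:**
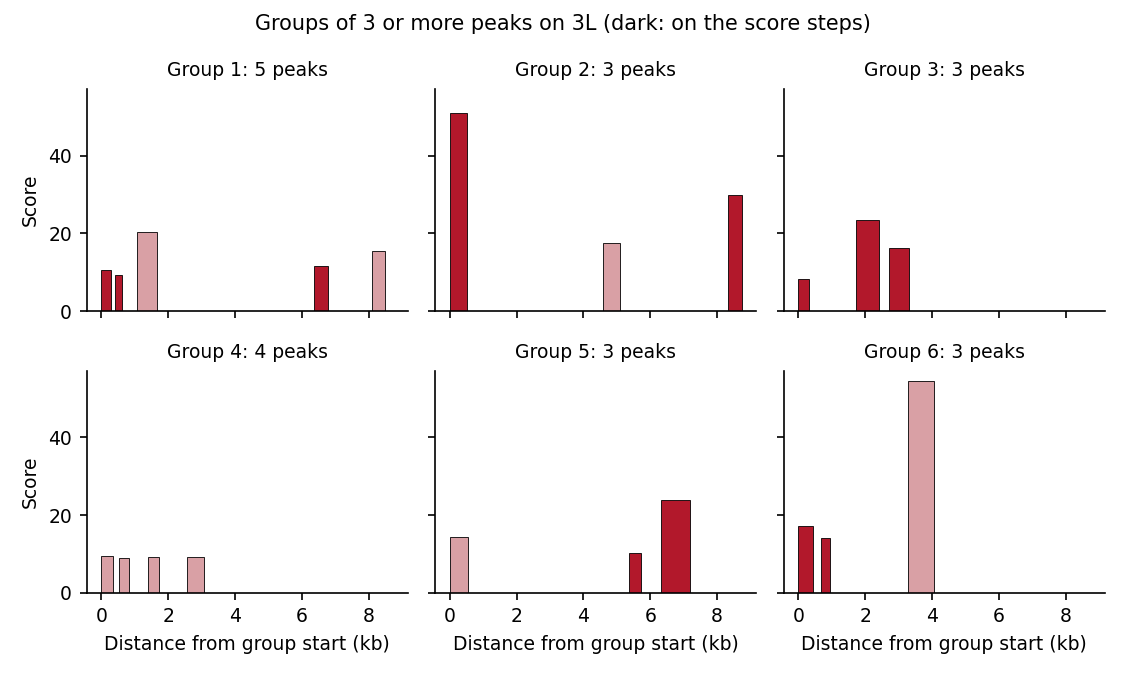
The 6 groups of 3 or more peaks on 3L in order along the arm; each bar is a peak, drawn to scale from its start to its end in kb from the start of its group, with its score as height. Dark bars are on the common score steps and pale bars are off them; the 4 bars of group 4 are all pale and of nearly the same height, 9.02 to 9.56.

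The scores of 3L took only 140 different values, and 103 peaks shared their score with at least 1 other peak of the arm; the score of 10.61 occurred 9 times. These repeated values were set against the steps that whole counts over a single background give. A Poisson distribution with a mean of 48.9, fitted to the 1317 peaks outside 3L, gave such steps as −log10 of its upper tail, and the score of 150 of the 207 peaks of 3L (72.5%) lay within 0.015 of such a step. The other large arms pooled had 74.4% on the steps, with 92.3% on X and 66.0 to 73.6% on 2L, 2R and 3R. Of all 1317 peaks outside 3L, 807 were on the steps. The mean was chosen to place most of these 1317 on steps, so their shares are not like that of 3L. The share that unrelated scores would reach was not computed. MACS in general tests a peak against the larger of a genome-wide and a local background; which of them stands behind each score is not given in the sources used here.

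The share of peaks off the steps, 57 in all, varied along 3L, as read from stretches picked after their values were seen and without a test. In the first of the 10 stretches they were 16 of 32 peaks, in the ninth 7 of 18 and in the fourth 10 of 26, against 3 of 23 in the eighth and 1 of 8 in the sixth. All 4 peaks of the even group at 8013643 were off the steps, and with the next peak they formed the longest run of such peaks, 5 between 8013643 and 8290518, with scores from 9.02 to 43.1. A run of 4 lay at 21469634 to 21530294, with scores from 23.8 to 55.7. Peaks off the steps had a median score of 14.3 against 17.1 on them, and 42.1% of them were grouped against 27.3%, values given without a test. Of the 10 highest peaks, 8 were on the steps, and the exceptions were those at 7242266 and 1312778. Among peaks on the steps alone, the share at or above the upper quartile of the other large arms was 15.3% on 3L and 25.4% there (difference -10.1 points, Fisher's exact test, adjusted p = 0.049). At the median level the shares on the steps were 46.0 and 50.3%, a difference of -4.32 points (-13.0 to 4.56) that did not pass (Fisher's exact test, adjusted p = 0.45).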

How the data were processed

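The deposited file is a single list of peaks for all 4 libraries, with a start, an end and a score per peak, as the authors made it. Per the file headers its positions are on FlyBase release 5, and its source column names MACS. The submitters' processing notes list the build BDGP5 and the tools MACS2, BWA and CASAVA, the last in versions 1.7.0.2 and 1.7.0.3. Crosslinking took 15 min in 1.8% formaldehyde, per the labels' protocols. The score's scale, the calling threshold, the pooling of libraries and the handling of multiply mapped reads, which could raise or lower a peak, are not given in the sources read. Depth is unknown. Nothing states that libraries of a group came from separate collections.

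Samples were grouped by their titles. The length of an arm was its span from first to last peak, which is shorter than the arm. Densities were compared with two-sided exact conditional tests, adjusted by Benjamini-Hochberg over 5 arms, and shares with Fisher's exact or binomial tests, adjusted over 5 comparisons; a result was called at an adjusted p under 0.05. Peaks are named by rule: the 10 highest, 3 widest and 3 lowest, groups of 3 or more, and the ends of the 3 longest stretches without a peak; others were chosen after their values were seen. The members, lists and tests were chosen with earlier results of these data known. Alternatives were a stricter score, peaks under 100 bp apart merged, groups counted once, neighbour distances of 2 and 10 kb and chromosome 4 added; the score steps, a dense stretch of 2L left out, the first 1 Mb of 3L left out and arm by arm shares were added after the data were seen. Statistics were tested on simulated data. Calculations used Python 3.11.15, numpy 2.4.6, scipy 1.17.1 and matplotlib 3.10.9.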

Additional observations from a re-analysis of the deposited data

Results flagged for a closer look

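The scaffold 3LHet, heterochromatin assigned to the same arm but left out of all comparisons, held 13 peaks, and signal in sequence that no comparison used is why it is given here. Their median score was 44.6 and their median width 503 bp, against 16.3 and 387 bp on 3L, and none scored under 10. The highest, at 1396326 to 1397202, scored 215.6, and the next, at 458633 to 459696, scored 129.8. Of the 13, 9 were on the common score steps, and these highest 2 were not. The 13 were among the 1317 peaks outside 3L to which the steps were fitted. No level in control libraries was at hand, and no explanation was tested.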

How the results depend on the processing

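Of 59 recomputed values of 11 results, 36 kept direction and call, counting values that passed in neither setting. The share of strong peaks on 3L, which did not pass at the median level (-9.23 points), passed at the upper quartile level (-10.8), with peaks merged (-10.3) and with chromosome 4 added (-12.3). At the median level it did not pass with the highest peak of each group (-9.18), without the 2L stretch (-8.45) or on the score steps (-4.32; 46.0% against 50.3%, Fisher's exact test, adjusted p = 0.45). At the upper quartile it also passed on the score steps (-10.1), with the highest peak of each group (-11.0), without the 2L stretch (-10.7) and without the first 1 Mb of 3L (-9.28). Among peaks with a score of at least 18.6, the median of the arms, the density ratio of 3L to 2L passed at 0.68, and those to X and 3R turned to 0.93 and 0.83. On the score steps the ratios to X and 2L turned to 0.85 and 1.02. Without the 27 peaks of the 2L stretch the ratio to 2L was 1.06. With groups counted once, the ratio to 2R lost its call (0.79) and that to 3R turned to 0.95. The share of wide peaks turned on the score steps (0.854 points), was -0.725 points without the 2L stretch and -7.70 at the upper quartile level, and passed in none of these. The share with a neighbour, never past the threshold, turned at the stricter score (-8.22), merged (-0.0444), at 10 kb (-3.11), at 2 kb (-1.63), with chromosome 4 (-1.35) and on the steps (-2.76). The rho of width and score was 0.38 among peaks from the 3L median upwards, a set cut by score itself. Otherwise the cause was not tested. No paired analysis was possible because there is a single list for the 4 libraries, and for the same reason none of them could be left out. With unknown depth, no stretch without a peak can be called unbound.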

Other observations

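Scores of successive peaks along 3L were hardly related, with Spearman's rho of 0.11 over the 206 pairs of neighbouring peaks, given as a description. Within groups, the highest members had a median score of 21.9 and a median width of 498 bp over 28 groups. The 37 lower members had 11.6 and 333 bp. The highest member was chosen by score, which fixes the order of the scores within each group. Width and score rose together among grouped peaks (Spearman's rho 0.65), so the choice also favours wider peaks.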
